A study of Mus musculus with 5 samples.

Results

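The elastin and microfibril genes are Eln, Fbn1, Fbn2, Fbln1, Fbln5, Efemp2, Mfap2, Mfap4, Mfap5 and Emilin1, 10 genes chosen by symbol among the 23478 gene rows of the count table, and all 10 were found. They were followed in RNA-Seq libraries of GFP-sorted mouse lung cells, 2 from control and 3 from Igf1r-deleted mice. All pups carried Gli1-CreERT2, a tamoxifen-inducible Cre driven by the Hedgehog target gene Gli1, and the Rosa26-eGFP reporter, so that deletion and sorting reached only the cells in which this Cre was active. Every pup received tamoxifen (100 µg per dose) at P0 and at P1, and lungs were taken at P6. Controls were Igf1r Flox/Wildtype, so that they could also lose 1 Igf1r copy in the targeted cells, and the Igf1r-deleted mice were Igf1r Flox/Flox. Igf1r encodes the receptor for insulin-like growth factors, and the comparison asks how its loss in Gli1-lineage cells changes their transcripts early in septation.

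Elastic fibres give the lung its recoil. Tropoelastin, the product of Eln, is laid onto a scaffold of fibrillin microfibrils, where fibulins and EMILIN-1 help to place it and lysyl oxidases cross-link it. In the postnatal lung, myofibroblasts make much of this elastin at the tips of the growing septa, and mice that lack Eln or some of its assembly partners fail to form normal airspaces.

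Promoter sequence was read for 6 of the 10 genes from RefSeq (build GRCm38.p6), as 11 windows that run from 250 bases before to 50 after an annotated start site. Eln, Fbn2, Mfap4 and Mfap5 had no entry. The 250 bases before a start of Fbln5 (chr12:101819120-101819369, minus strand) and of Efemp2 (chr19:5473696-5473945, plus strand) are shown because these 2 fibulin genes had among the most alike levels over the libraries. Mfap2 (chr4:141010174-141010423, plus strand) is shown because, of the 11 windows read, this one alone held any of the motifs searched. The capitals mark that match. Each reads 5′ to 3′ on the strand of the gene.
Fbln5: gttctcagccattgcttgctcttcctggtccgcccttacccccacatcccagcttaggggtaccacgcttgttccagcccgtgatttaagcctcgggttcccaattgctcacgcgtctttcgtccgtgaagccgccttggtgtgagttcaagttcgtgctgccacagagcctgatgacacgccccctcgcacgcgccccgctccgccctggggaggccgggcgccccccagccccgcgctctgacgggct
Efemp2: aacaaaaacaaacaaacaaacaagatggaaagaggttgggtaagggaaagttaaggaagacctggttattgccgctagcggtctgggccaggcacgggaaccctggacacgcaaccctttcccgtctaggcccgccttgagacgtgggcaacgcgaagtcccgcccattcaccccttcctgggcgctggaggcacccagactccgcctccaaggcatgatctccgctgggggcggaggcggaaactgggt
Mfap2: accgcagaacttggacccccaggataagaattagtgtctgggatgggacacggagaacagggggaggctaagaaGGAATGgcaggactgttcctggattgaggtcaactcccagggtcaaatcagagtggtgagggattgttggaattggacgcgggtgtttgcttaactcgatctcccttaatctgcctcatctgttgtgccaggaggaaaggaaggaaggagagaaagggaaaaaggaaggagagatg

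The motifs were GGAATG, the core bound by TEAD factors, GTAAACA, a forkhead core, TATAAA and the CArG box bound by serum response factor, each read on both strands. GGAATG lay 176 bases before the Mfap2 start, at offset -176 on the plus strand, in 1 of the 11 windows. Among all 32851 RefSeq windows of this length, 14.7% held GGAATG, 3.65% GTAAACA, 13.6% TATAAA and 1.63% a CArG box. A match here is a run of letters, not a measured binding site.

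The libraries held 35116766 to 37597857 counts, and the 10 genes took 2.68% to 3.39% of them. Igf1r, the targeted gene, stood at 324 CPM (counts per 1000000 counts, scaled between libraries by edgeR's TMM factors) in control replicates 1 and 2, and at 140, 177 and 194 CPM in Igf1r-deleted replicates 1, 2 and 3. Its log2 fold change was -0.93 (SE 0.14, edgeR quasi-likelihood test, adjusted p = 0.354). The same gene had an adjusted p of 1.06e-05 in the DESeq2 Wald test. The sorted cells carried the transcripts of fibroblasts: the 12 alveolar myofibroblast markers summed to between 5557 and 6047 CPM in controls and between 6182 and 6809 CPM after deletion, and the 12 matrix fibroblast markers to between 10767 and 11060 against between 9071 and 9957 CPM. Epithelial markers summed to between 1034 and 1111 CPM in controls and between 504 and 1115 CPM after deletion, and hematopoietic markers to between 443 and 617 against between 222 and 504 CPM. Adventitial fibroblast markers summed to between 5776 and 7189 CPM in controls and between 5444 and 6806 CPM after deletion. Pericyte markers summed to between 1043 and 1271 against between 1048 and 1213 CPM, and endothelial markers to between 622 and 643 against between 299 and 872 CPM. Of 6 erythroid markers, Hba-a2, Hbb-bs and Hbb-bt were at 0 in every library.

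The libraries also differed in sex. The Y-linked gene Ddx3y stood at 114 and 108 CPM in the controls and at 85.6 CPM in Igf1r-deleted replicate 2, but at 0.23 and 0.056 CPM in Igf1r-deleted replicates 1 and 3. Xist, which is transcribed from the inactive X chromosome, was at 170 and 435 CPM in those last 2 libraries and at most at 4.09 CPM in the other 3. Both controls and Igf1r-deleted replicate 2 thus carried Y-linked transcripts, and the other 2 Igf1r-deleted libraries carried nearly none. For each of the 10 genes the log2 fold change within the 3 libraries with Y-linked counts is given beside its main value. That value rests on a single Igf1r-deleted library, replicate 2, and a fit with 1 library in a genotype takes its spread from the other.

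In the comparison of the genotypes, no elastin or microfibril gene passed the adjusted threshold. Of the 10 genes, 4 had fitted log2 fold changes below 0 (Eln, Fbn1, Fbn2 and Mfap4) and 6 above it, against 47.7% of all genes tested below 0. The median was 0.019 over the 10 genes and 0.015 over all 15298 genes tested. The count with an adjusted p under 0.05 was 0 of 10 in edgeR, where the background was 0% of all genes, and 0 of 10 in DESeq2, where it was 1.7%. At an unadjusted p under 0.05, edgeR gave 1 of 10 (Fbn2), beside 12.4% of all genes, and DESeq2 gave 3 of 10 (Fbn1, Fbn2 and Mfap5), beside 13.2%. Only Fbn2 had every Igf1r-deleted library on the same side of both controls, 1 of 10 genes where 31% of all genes did. It lay on the lower side, as 14.9% of all genes did, and none of the 10 lay on the higher side, as 16% of all genes did. The study's methods kept genes that moved by 0.5 or more on the log2 scale with an unadjusted p under 0.05 and an FPKM over 1. None of the 10 met these limits in the edgeR fit, with CPM per kilobase in place of FPKM, beside 4.7% of all genes. The 1 unadjusted edgeR call was on the lower side, where 6.75% of all genes were called. On the higher side 0 of 10 were called, beside 5.65% of all genes. Counts this small among 10 genes cannot be set apart from the background shares. The summed myofibroblast markers were higher, and the summed matrix fibroblast markers lower, in every Igf1r-deleted library than in both controls. Single markers did not all follow their sums: 5 of 12 myofibroblast markers had log2 fold changes below 0 and 4 of 12 matrix fibroblast markers above 0, among them Enpp2 and Hhip lower and Meox2 and Slc7a10 higher at an unadjusted p under 0.05, named after their values were seen. Their part in these values was not tested. In RNA from pooled sorted cells, fewer cells of a type and less RNA per cell cannot be told apart.

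**Figure D1:**
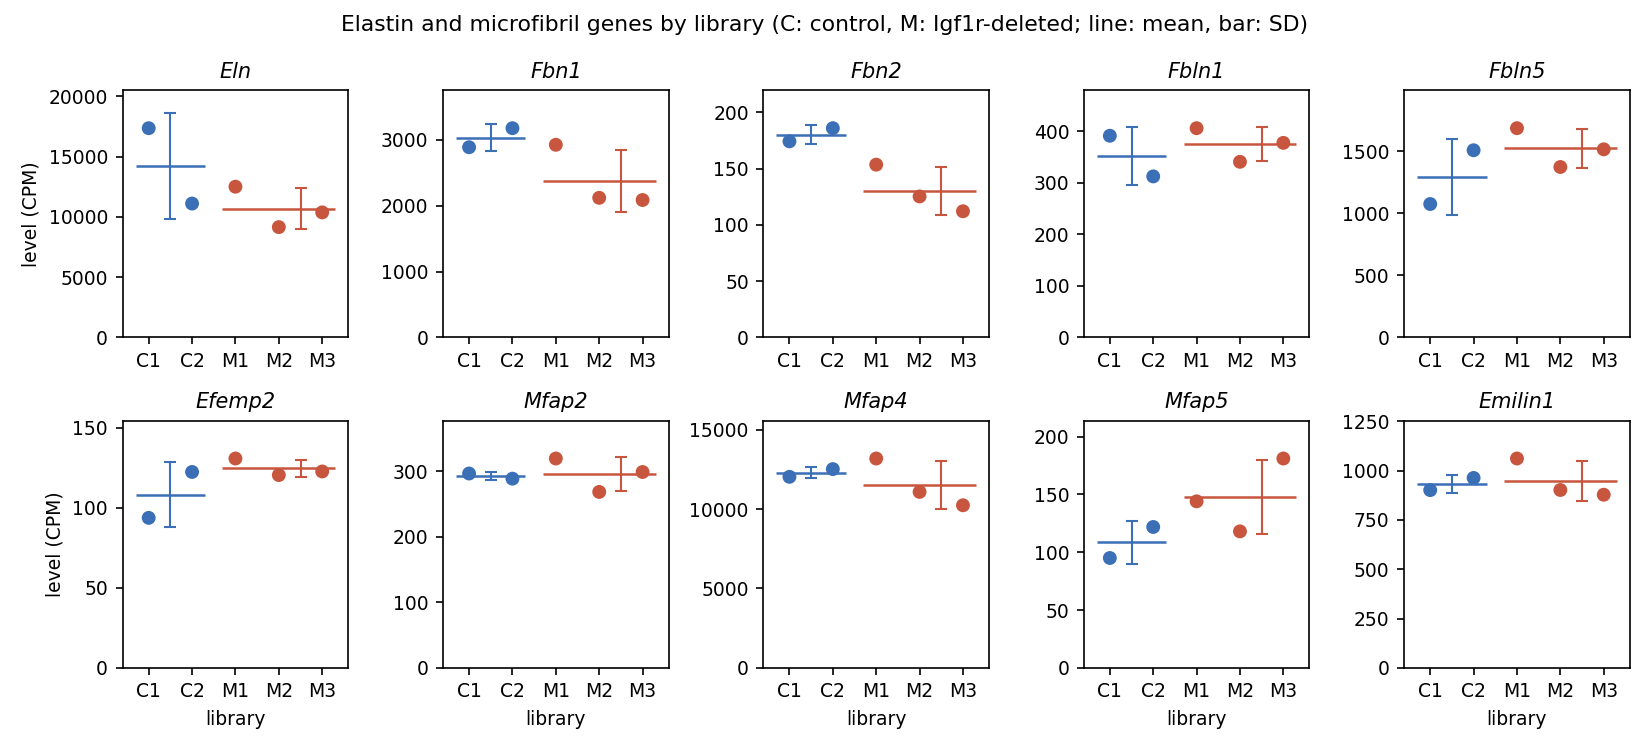
Level of each of the 10 genes in CPM (vertical axes, each from 0) in control (C1, C2, blue) and Igf1r-deleted (M1 to M3, red) libraries; points are libraries, lines genotype means and bars 1 SD. In the panel of Fbn2 all 3 red points lie below both blue points, from 112 to 154 against 174 and 186 CPM, and in the other 9 panels the genotypes overlap.

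Eln, which encodes tropoelastin (chr5:134702593-134747323, minus strand, mm10), was among the 3 most counted genes in every library. It stood at 17351 and 11104 CPM in control replicates 1 and 2, and at 12501, 9150 and 10370 CPM in Igf1r-deleted replicates 1, 2 and 3. Control replicate 1 was the highest of all, control replicate 2 lay between Igf1r-deleted replicates 1 and 3, and the genotypes overlapped. The means were 14227 ± 4417 (SD, n = 2) and 10673 ± 1696 CPM (SD, n = 3). The fitted difference was -0.41 on the log2 scale (SE 0.24, 95% interval -0.98 to 0.15, edgeR adjusted p = 0.492). The controls differed from each other by 0.64 on the log2 scale, more than the genotypes did. Without control replicate 1 the Eln log2 fold change was -0.063, and without control replicate 2 it was -0.71. Among the 3 libraries with Y-linked counts it was -0.64.

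Fibrillins form the microfibril backbone, Fbn1 as the main form of postnatal tissue and Fbn2 as a form used most in development. Both were lower on average after deletion, and neither passed the adjusted threshold. Fbn2 stood at 174 and 186 CPM in the controls and at 154, 125 and 112 CPM after deletion. Every Igf1r-deleted library was below both controls, replicate 1 the nearest to them. The means were 180 ± 8.28 and 130 ± 21.2 CPM (SD, n = 2 and 3), a fitted fold of 0.724, or -0.47 on the log2 scale (SE 0.14, 95% interval -0.80 to -0.13). Its edgeR p was 0.0124 unadjusted and 0.354 adjusted, and DESeq2 gave 0.00365 and 0.107. Leaving out any 1 library kept the Fbn2 log2 fold change between -0.61 and -0.37, and within the libraries with Y-linked counts it was -0.53. Without control replicate 2 its unadjusted edgeR p passed the threshold no longer, at 0.0549.

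Fbn1 (chr2:125300594-125507993, minus strand) stood at 2887 and 3176 CPM in the controls and at 2924, 2120 and 2086 CPM after deletion. Igf1r-deleted replicates 2 and 3 were below both controls, and replicate 1 lay between them. The difference was -0.35 on the log2 scale (SE 0.18, 95% interval -0.78 to 0.074, edgeR adjusted p = 0.460). Without Igf1r-deleted replicate 1 it was -0.53, with an unadjusted edgeR p of 0.00383 in a fit where 21% of all genes had a p under 0.05. With any other library left out it lay between -0.42 and -0.27 at unadjusted edgeR p-values from 0.0977 to 0.292, and among the libraries with Y-linked counts it was -0.52. Of the annotated exon bases of Fbn1, 20.1% also lie in exons of Gm9913 on the opposite strand, and the sources used here do not say whether counting used strand. Within a library, Fbn2 stayed in a narrow proportion to Fbn1. The ratio of their levels per kilobase of exon was 0.0554 and 0.0537 in the controls and 0.0482, 0.0543 and 0.0493 after deletion, overlapping (exact permutation test over the 10 splits of 5 libraries, two-sided, p = 0.3, adjusted over 5 ratios p = 0.75). With 2 against 3 libraries the smallest p such a test can give is 0.1.

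Among the fibulins, which bridge tropoelastin and microfibrils, no gene stood apart between the genotypes. Fbln5, whose protein binds both tropoelastin and integrins (chr12:101746565-101819055, minus strand), stood at 1076 and 1509 CPM in the controls and at 1687, 1374 and 1517 CPM after deletion. Efemp2, whose protein brings lysyl oxidase to tropoelastin (chr19:5473954-5482517, plus strand), stood at 93.7 and 122 CPM and at 131, 120 and 123 CPM. Both genes were lowest in control replicate 1, while control replicate 2 lay among the Igf1r-deleted libraries. The log2 fold changes were 0.24 (SE 0.18, edgeR adjusted p = 0.587) for Fbln5 and 0.21 (SE 0.13, edgeR adjusted p = 0.525) for Efemp2. Without control replicate 1 they were 0.010 and 0.021, and without control replicate 2 they were 0.49 and 0.40. Control replicate 1 thus set the size of both differences. Within the libraries with Y-linked counts the log2 fold changes were 0.083 for Fbln5 and 0.15 for Efemp2.

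Fbln1, a fibulin found in elastic fibres and basement membranes (chr15:85205949-85286535, plus strand), stood at 392 and 313 CPM in the controls and at 406, 341 and 378 CPM after deletion. It ran the other way from Fbln5 in the controls, with replicate 1 the higher, and the genotypes overlapped (log2 fold change 0.091, SE 0.14, edgeR adjusted p = 0.795). The direction of this small difference turned without control replicate 2, at -0.073, and within the libraries with Y-linked counts, at -0.052. The ratio of Fbln1 to Fbln5 per kilobase was 0.576 in control replicate 1 and 0.328 in control replicate 2, and lay between 0.381 and 0.394 in the 3 Igf1r-deleted libraries (exact permutation p = 0.7, two-sided). The ratio of Fbln5 to Efemp2 was steadier, at 6.29 and 6.76 in the controls and at 7.07, 6.25 and 6.78 after deletion (exact permutation p = 0.7, two-sided).

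The microfibril-associated glycoproteins Mfap2 and Mfap5 (MAGP-1 and MAGP-2) bind fibrillins along the microfibril. Mfap5 (chr6:122505845-122529290, plus strand) stood at 94.98 and 122 CPM in the controls and at 144, 118 and 181 CPM after deletion. Igf1r-deleted replicates 1 and 3 were above both controls, and replicate 2 lay between them. Its log2 fold change was 0.45 (SE 0.19, 95% interval -0.010 to 0.90), with an edgeR p of 0.0541 unadjusted and 0.403 adjusted and a DESeq2 p of 0.0378 unadjusted and 0.293 adjusted. Without control replicate 1 or Igf1r-deleted replicate 3 it was 0.27, with unadjusted edgeR p-values of 0.276 and 0.158. Its 2 highest libraries were the 2 with Xist and without Y-linked counts. Among the 3 libraries with Y-linked counts the Mfap5 log2 fold change was 0.12, and with Xist as a covariate it was 0.25 (SE 0.20, edgeR adjusted p = 0.645). With 2 of 3 Igf1r-deleted libraries and neither control in that state, sex and genotype cannot be told apart for them.

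Mfap2 (chr4:141010418-141015984, plus strand) stood at 297 and 289 CPM in the controls and at 320, 269 and 299 CPM after deletion, and both controls fell within the Igf1r-deleted range. The fitted log2 difference was 0.015 (SE 0.11, 95% interval -0.24 to 0.27, edgeR adjusted p = 0.965). The interval is the narrowest of the 10 genes, and within the libraries with Y-linked counts the value was -0.13. The ratio of Mfap5 to Mfap2 per kilobase was 0.108 and 0.142 in the controls and 0.152, 0.148 and 0.204 after deletion. It was higher in 3 of 3 Igf1r-deleted libraries than in either control, by 0.42 on the log2 scale, and this reached the smallest exact permutation p of 0.1 (two-sided, adjusted over 5 ratios p = 0.5), so the ratio failed the correction. Within the libraries with Y-linked counts the ratio was 0.148 after deletion, against 0.108 and 0.142 in the controls.

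Mfap4, an elastic fibre glycoprotein that binds tropoelastin and fibrillin (chr11:61485431-61488900, plus strand), and Emilin1, whose protein sits where elastin meets the microfibril (chr5:30913402-30921277, plus strand), differed by less than the spread between libraries. Mfap4 stood at 12038 and 12525 CPM in the controls and at 13192, 11088 and 10245 CPM after deletion, with the controls inside the Igf1r-deleted range. The difference was -0.094 on the log2 scale (SE 0.18, 95% interval -0.50 to 0.32, edgeR adjusted p = 0.836). Emilin1 stood at 902 and 963 CPM in the controls and at 1062, 902 and 878 CPM after deletion, again with the controls inside. Its log2 fold change was 0.023 (SE 0.13, 95% interval -0.28 to 0.32, edgeR adjusted p = 0.952). Within the libraries with Y-linked counts the values were -0.15 for Mfap4 and -0.053 for Emilin1. Over the 5 libraries Mfap4 and Emilin1 had the most alike profiles of any 2 of the 10 genes, with a root mean square distance of 0.067 between their log2 CPM after centring, next to 0.068 for Fbln5 and Efemp2 and 0.080 for Fbn1 and Fbn2. The farthest apart were Eln and Mfap5, at 0.55. These distances are descriptions over 5 libraries that the genes share, and they tend to be small where both genes vary little. The SD of log2 CPM over the libraries was 0.14 for Mfap4 and 0.11 for Emilin1, against 0.35 for Eln and for Mfap5.

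**Figure D2:**
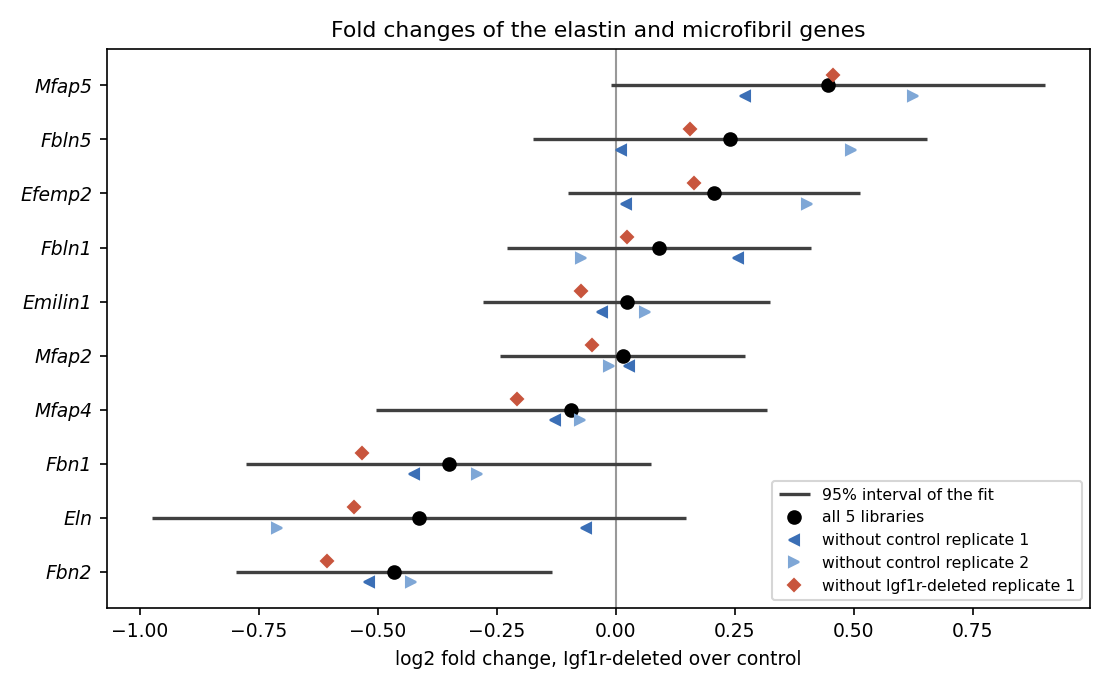
Fitted log2 fold change of each gene, Igf1r-deleted over control (horizontal axis), with its 95% interval from all 5 libraries and the value when control replicate 1, control replicate 2 or Igf1r-deleted replicate 1 is left out. The interval of Fbn2 alone lies wholly on one side of 0, from -0.80 to -0.13, and the Eln value runs from -0.71 to -0.063 with the control left out.

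Between the 2 controls, 6 of the 10 genes (Eln, Fbln1, Fbln5, Efemp2, Mfap2 and Emilin1) differed by more on the log2 scale than the genotype means did, and 52% of all genes tested did so. The summed level of the 10 genes was 35305 and 30309 CPM in the controls, against 32520, 25607 and 26190 CPM after deletion. Igf1r-deleted replicates 2 and 3 were the lowest, and replicate 1 lay between the controls (log2 difference -0.23, exact permutation p = 0.3, two-sided). Eln carried much of this sum. Without it the sums were 17954 and 19206 CPM in the controls, against 20020, 16457 and 15820 CPM after deletion, with replicate 1 the highest of all (log2 difference -0.099, exact permutation p = 0.5, two-sided).

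The genes spanned a wide range of levels. Per kilobase of annotated exon, Mfap4 led with a mean of 6149 CPM per kb, the highest of all genes tested, and Eln followed with 1494 CPM per kb, the 4th of all. Mfap2 (243 CPM per kb), Fbn1 (218), Fbln5 (207) and Emilin1 (191) formed a middle group, followed by Fbln1 (83.8), Mfap5 (36.8), Efemp2 (31.2) and Fbn2 (11.4). Fbn1 stood between 18.0 and 18.6 times above Fbn2 in the controls and between 18.4 and 20.7 times above it after deletion. Fbln5 exceeded Efemp2 by between 6.25 and 7.07 times over all 5 libraries. Mfap2 exceeded Mfap5 by between 7.03 and 9.25 times in the controls and between 4.89 and 6.74 times after deletion. These folds depend on the length used. By coding length the control mean was 13.2 times for Fbln5 over Efemp2, 2.43 times for Mfap2 over Mfap5 and 17.0 times for Fbn1 over Fbn2, and by the longest transcript it was 5.38, 6.38 and 15.5 times.

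Neighbours in this order did not always differ beyond their spread. In both genotypes the ranges overlapped for Mfap2 and Fbn1, for Fbln5 and Emilin1, and for Mfap5 and Efemp2. Fbn1 and Fbln5 were separate in the controls, where Fbn1 stood at 238 and 262 CPM per kb and Fbln5 at 156 and 218 CPM per kb. After deletion they overlapped, at between 172 and 241 CPM per kb for Fbn1 and between 199 and 244 CPM per kb for Fbln5, a change of order that was not tested. The distance from Mfap4 to Eln was 4.12 times by exon length, 2.13 times by the longest transcript and 2.99 times by coding length, and the order of the middle group also changed with these lengths. Median coding exon length was 60 bases in Eln, 126 in Fbn1 and 155 in Mfap4. The reads were placed with Bowtie2, which does not split a read across an intron, and the part that short exons play in the order was not tested.

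**Figure D3:**
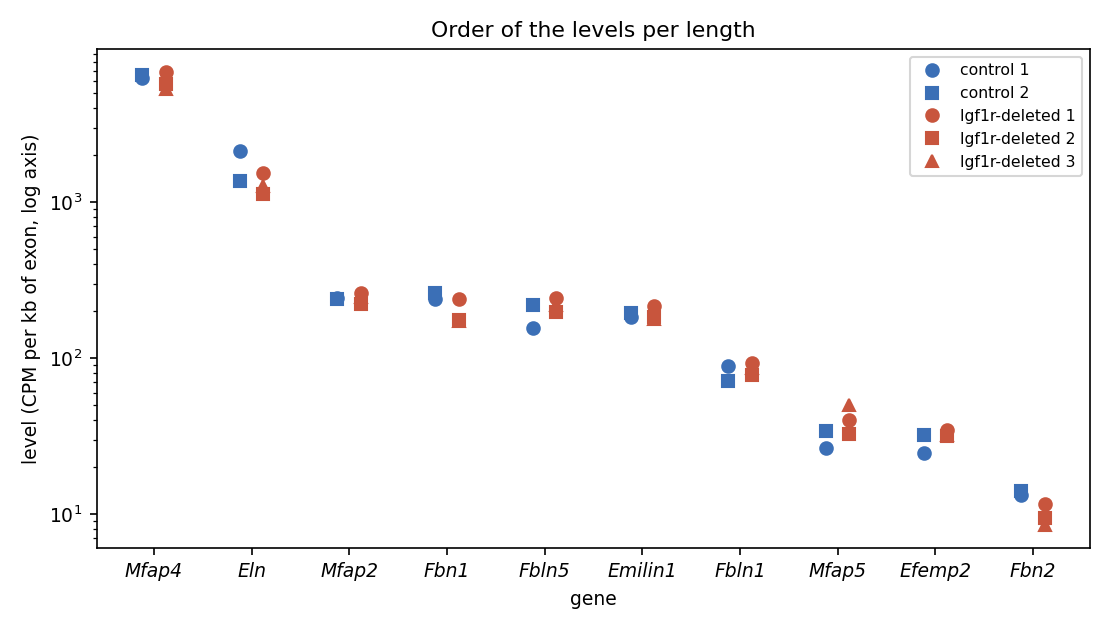
Level of each gene per kilobase of exon (vertical log axis, CPM per kb) in each library, genes ordered from the highest to the lowest mean; blue points are controls and red points Igf1r-deleted libraries. Mfap4 and Eln stand above the others in every library, at means of 6149 and 1494 CPM per kb, and Fbn2 stands lowest at 11.4.

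Other genes tied to elastic fibres, some by symbol alone, were read from 7 lists, of which 56 of 59 genes were tested. Of these, 32 had log2 fold changes below 0 and 24 above it, with a median of -0.056 against 0.015 for all genes. None had an adjusted p under 0.05 in edgeR or DESeq2. At an unadjusted edgeR p under 0.05, 7 were lower and 6 higher, where the background was 6.75% lower and 5.65% higher. Without control replicate 1 the 13 calls became 2, in a fit where all genes fell from 12.4% to 2.76% called.

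Of the 5 lysyl oxidases, which cross-link tropoelastin and collagen, 1 was lower at an unadjusted p under 0.05. Lox stood at 1898 and 1295 CPM in the controls and at 1283, 797 and 1024 CPM after deletion, below both controls in 3 of 3 libraries but by little in replicate 1 (log2 fold change -0.63, SE 0.23, edgeR unadjusted p = 0.0305). The Lox value was -0.33 (edgeR unadjusted p = 0.223) without control replicate 1. Loxl1, the paralog tied most closely to elastin, stood at 1596 and 1817 CPM in the controls and at 1960, 1827 and 1905 CPM after deletion (log2 fold change 0.15, SE 0.12). It was higher than both controls in every Igf1r-deleted library, the opposite order to Lox, but by little in replicate 2. Its edgeR unadjusted p was 0.259, and the Loxl1 value was 0.057 without control replicate 1.

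The latent TGF-beta binding proteins, relatives of the fibrillins, were split. Ltbp2 stood at 1137 and 1619 CPM in the controls and at 1703, 2026 and 1874 CPM after deletion (log2 fold change 0.44, SE 0.18, edgeR unadjusted p = 0.0422), and 0.20 without control replicate 1. Ltbp4, needed for elastin assembly with Fbln5, stood at 2740 and 2308 CPM and at 2429, 1847 and 1795 CPM (log2 fold change -0.32, SE 0.17). Ltbp2 was above both controls in all 3 libraries, and Ltbp4 below both in 2. Among 11 genes listed beside the fibulins, EMILINs and MFAPs, the MFAP ones by symbol alone, Mfap3l was higher at an unadjusted p under 0.05. It stood at 9.42 and 13.6 CPM in the controls against 15.4, 16.5 and 15.3 CPM (log2 fold change 0.45, and 0.20 without control replicate 1). Hmcn1, the highest per length, had a log2 fold change of -0.24.

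The 8 ADAMTS and ADAMTS-like genes, whose products act on or bind fibrillin microfibrils, held 5 of the 13 unadjusted calls, 2 lower and 3 higher. Thsd4 (ADAMTSL6), which promotes fibrillin-1 assembly, stood at 37.96 and 44.4 CPM in the controls and at 51.3, 57.5 and 54.5 CPM after deletion, above both controls in every library (log2 fold change 0.40, SE 0.11, edgeR unadjusted p = 0.00816). Adamtsl2 stood at 336 and 84.5 CPM in the controls and at 103, 55.5 and 55.3 CPM after deletion. The log2 fold change was -1.56 (SE 0.53, edgeR unadjusted p = 0.0197). Control replicate 1 stood far above the other 4 libraries, and control replicate 2 lay among the Igf1r-deleted ones. Leaving out control replicate 1 gave an Adamtsl2 value of -0.26, and leaving out control replicate 2 one of -2.25. Adamtsl5 had a log2 fold change of 0.51, and Adamts17, the highest of the list per length, one of 0.013.

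Of the 8 fibre-associated proteins, 7 had log2 fold changes below 0 and none an unadjusted p under 0.05. The highest, Fn1 (fibronectin), stood at 18488 and 16143 CPM in the controls and at 15556, 9625 and 10716 CPM after deletion (log2 fold change -0.53, SE 0.24, edgeR unadjusted p = 0.0578). Every Igf1r-deleted library was below both controls, with replicate 1 the nearest to them, as in Fbn2. The 12 integrins and elastin receptor genes were split 6 and 6. Itgb1 had a log2 fold change of -0.048, Itgb8 one of 0.87 from levels of at most 8.13 CPM, and Neu1, a subunit of the elastin receptor, one of -0.22.

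Of 8 elastin-degrading enzymes tested, 6 had log2 fold changes below 0. Prtn3 (-1.69), Ctss (-1.06) and Ctsk (-0.32) were the 3 lower at an unadjusted edgeR p under 0.05. The Prtn3 value came from levels of at most 2.62 CPM. Mmp2, the highest per length, had a log2 fold change of -0.18. Without control replicate 1 the values were -1.17 for Prtn3, -0.68 for Ctss and -0.19 for Ctsk, and without control replicate 2 they were -2.08, -1.37 and -0.46. Prtn3 and Ctss are expressed by white blood cells, and all 12 hematopoietic markers had log2 fold changes below 0 in the same libraries, 4 of them at an unadjusted p under 0.05. Their part in the lower Prtn3 and Ctss was not tested. Mmp7 was at 0 in every library.

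**Figure D4:**
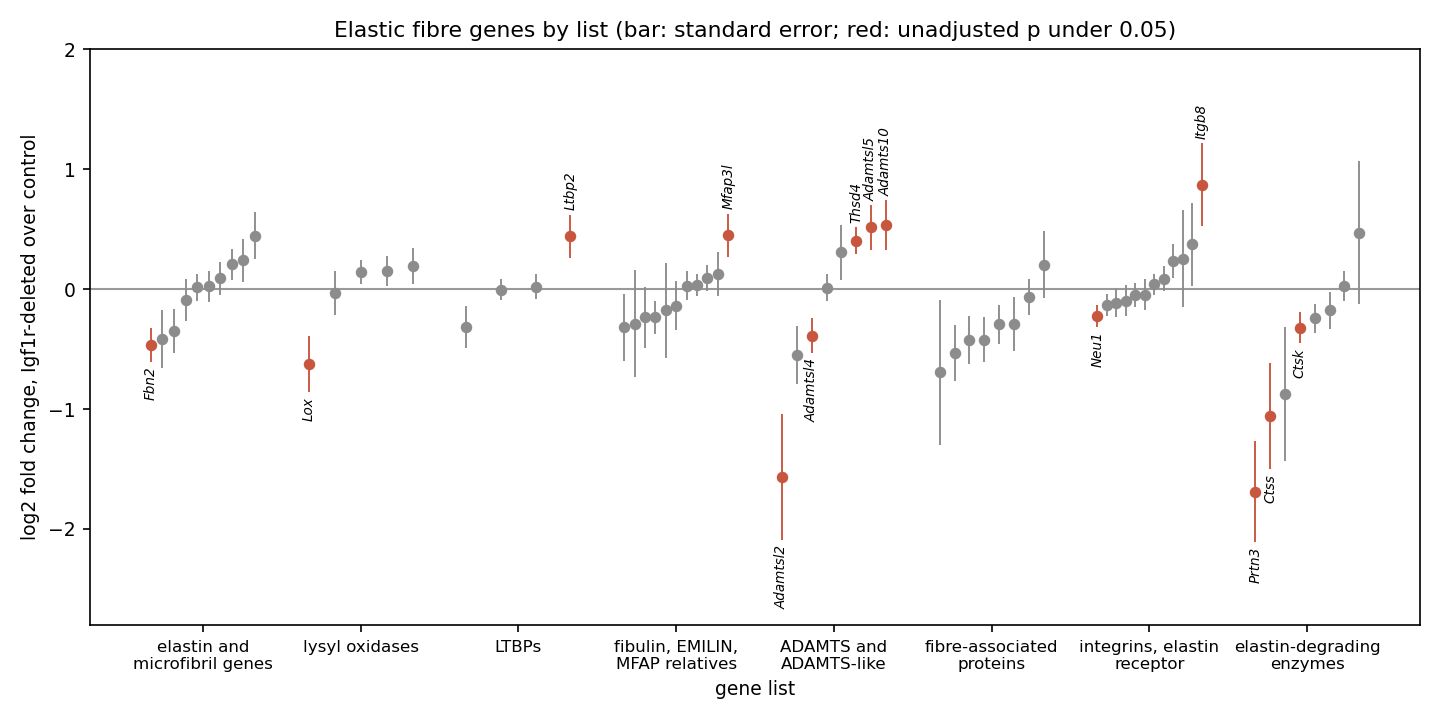
Log2 fold change, Igf1r-deleted over control (vertical axis), of each tested elastic fibre or listed related gene, grouped by list (horizontal axis). Bars are standard errors, and genes with an unadjusted edgeR p under 0.05 are red and named. Fbn2 is the only red point among the 10 elastin and microfibril genes, and the red points of the other lists lie 7 below and 6 above 0.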

How the data were processed

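RNA was isolated from GFP-sorted P6 lung cells with 2 control and 3 Igf1r-deleted libraries, sequenced as paired ends. Per the labels and the study's methods, the authors used Trim Galore for trimming and Bowtie2 for alignment to mm10, counted genes in Bioconductor, derived FPKM with Cufflinks and tested with DESeq. The annotation, strand setting and number of pups per library are not given in the sources used here. The deposited table holds raw counts per gene for the 5 libraries, 7 empty columns and 0 unused sample columns. Libraries held 35116766 to 37597857 counts. Counts were tested with edgeR 4.0.16 (R 4.3.3; TMM, filterByExpr, quasi-likelihood F test, two-sided, Benjamini-Hochberg over 15298 genes), with limma 3.58.1 and DESeq2 1.42.0 as alternatives. Standard errors and 95% intervals are on the log2 scale. Exon lengths came from GENCODE M21, an annotation of the same build. Sums and ratios used exact permutation tests in SciPy 1.17.1. P-values measure the spread between these libraries, since the labels do not say that they are separate animals. Genes and lists were chosen with earlier results of these data known. Named genes are the 10 genes, Igf1r, and from each related list the highest per length and up to 3 with the smallest unadjusted p under 0.05. Ddx3y and other genes named for sex or cell type come from marker lists. The genes most like Eln were taken by the distance between profiles, and 1 of these is not reported here.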

Additional observations from a re-analysis of the deposited data

How the results depend on the processing

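The 16 alternatives were other scalings, filters and tests, a replicate block, an Xist covariate and each library left out. Also among them were the 3 libraries with Y-linked counts alone, a choice made after seeing the data. With both controls and more than 1 Igf1r-deleted library kept, 0 of the 10 genes had an adjusted p under 0.05. Over the whole table, the other scalings and filters, limma, a robust edgeR fit and the Xist covariate also called 0 genes. The 0 of 10 was fixed in those fits. DESeq2 called 200 genes, the replicate block 136, and leaving out Igf1r-deleted replicate 1, 2 or 3 called 5, 4 and 0. The count with an unadjusted p under 0.05 was 1. It became 2 with library totals (13.6% of all genes), upper-quartile factors (12.4%) or a filter of at least 1 count in any library (11.3%). DESeq2 gave 3 (13.2%). With Igf1r-deleted replicate 1, 2 or 3 left out it was 2, 2 and 1, beside 21%, 6.58% and 7.35% of all genes. Without control replicate 2, which leaves 1 control, the log2 fold changes of Eln, Fbln5, Efemp2 and Mfap5 were -0.71, 0.49, 0.40 and 0.62. The count meeting the study's limits was 0, but 1 with library totals and 2, 1 and 0 without Igf1r-deleted replicate 1, 2 or 3. The share of all genes is not given for those fits, so no result for the 10 genes follows. The count of non-overlapping genes was 1, 3 with library totals, where 33.3% of all genes did not overlap, and 1 to 5 with 1 library left out, where 39.8% to 62.6% did not. With 1 library left out, the 13 called related genes became 2 to 23. The 2 arose without control replicate 1 or Igf1r-deleted replicate 2, where 2.76% and 6.58% of all genes were called, 3 without Igf1r-deleted replicate 3 (7.35%) and 23 without Igf1r-deleted replicate 1 (21%), so the whole table moved with them. The cause was not tested. The median log2 fold change of the 10 genes lay between -0.092 and 0.089. Library totals moved the median of all genes from 0.015 to 0.088.

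Of 160 single-gene values, 149 kept their direction and 11 turned, all for genes near 0. With the Xist covariate Fbln1 was -0.012, Mfap2 -0.070 and Emilin1 -0.00031, and within the libraries with Y-linked counts they were -0.052, -0.13 and -0.053. With 1 library left out, Fbln1 ranged from -0.073 to 0.26, Mfap2 from -0.051 to 0.074 and Emilin1 from -0.072 to 0.072. The log2 difference in the Fbln5 to Efemp2 ratio turned to -0.014 without control replicate 1 and to -0.0027 when Igf1r-deleted replicate 1 was left out, that of Fbln1 to Fbln5 to 0.25 without control replicate 1 (range -0.57 to 0.25), and that of Fbn1 to Eln to -0.37 without control replicate 1, with -0.015 and -0.0081 when Igf1r-deleted replicate 1 or 2 was left out (range -0.37 to 0.41).

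The labels number the replicates in both genotypes. Deviations from genotype means had r of 0.21 (number 1), 0.12 (number 2) and 0.12 (control replicate 2, Igf1r-deleted replicate 3). The 2 controls deviate oppositely, so these values are tied and cannot show pairing. With the replicate as a block, Igf1r-deleted replicate 3 was alone in its block and so added nothing to the genotype difference. That difference rested on the 2 same-numbered pairs. The Fbn2 log2 fold change was -0.38 in this fit (edgeR adjusted p = 0.264), close to the -0.37 without Igf1r-deleted replicate 3. Of the 10 genes, 1 had an unadjusted p under 0.05. The genes called at an adjusted p under 0.05 over the whole table rose from 0 to 136. The adjusted p of Fbn2 lay between 0.107 and 0.427 under the alternatives that kept all 5 libraries.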

Other observations

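Over the 5 libraries, the genes whose levels ran most like Eln included Mamdc2 and Sms, at root mean square distances of 0.042 and 0.043 between centred log2 CPM profiles among 8908 candidate genes. Mamdc2 stood at 312 and 193 CPM in control replicates 1 and 2 and at 217, 154 and 190 CPM in Igf1r-deleted replicates 1, 2 and 3. Sms, which encodes spermine synthase, stood at 33.98 and 20.8 CPM and at 24.3, 16.7 and 18.9 CPM. Both genes were highest in control replicate 1 and lowest in Igf1r-deleted replicate 2, as Eln was, an order that choosing them by this distance favours.

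The ratio of Fbn1 to Eln per kilobase was 0.111 and 0.191 in the controls and 0.156, 0.155 and 0.134 after deletion. The controls lay at both ends of the range (exact permutation p = 1.0, two-sided).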
